A study of Mus musculus with 10 samples.

Results

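The microRNAs of a control culture of mouse neural stem cells were compared between passage 3 (P3) and passage 1 (P1). A microRNA entered the comparison when it had at least 10 CPM (counts scaled to 1000000 mature microRNA counts of the library) in either library, and a microRNA that a library did not list was given no read. The rule took 428 microRNAs, of 1078 with a read in either control library and 1205 with a read in any of the 4 small RNA libraries of the series. The cells were neural stem cells of ICR mice, taken from the ventral midbrain at embryonic day 10, transduced with a mock lentivirus and passaged every 4 days. The culture set beside it differed in carrying a lentivirus for Lin28a, an RNA-binding protein that blocks maturation of let-7 precursors. Each culture and passage had 1 small RNA library and 1 RNA-seq library, so there was no spread between replicates, no test could be run, and every difference below describes 2 libraries. The labels do not say how many embryos were pooled, nor whether the small RNA and RNA-seq libraries came from the same dish.

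A microRNA is cut from a hairpin transcript, first in the nucleus by Drosha and Dgcr8 and, after export by Xpo5, in the cytoplasm by Dicer1. Either arm of the hairpin (5p or 3p) can be loaded into an Argonaute protein, where the seed, bases 2 to 8, pairs with target messenger RNAs. In the developing brain let-7 guides accumulate as progenitors mature, miR-9 is a microRNA of neural progenitors, miR-124 marks neurons, and miR-219 and miR-338 take part in the maturation of oligodendrocytes. Neural stem cells of the ventral midbrain can give rise to dopamine neurons, and in culture they are known to turn towards glia.

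The sequences below are those of the microRNAs that the comparison turns on, from RefSeq on build GRCm38.p6, written 5′ to 3′ with the seed in capitals and without the species prefix mmu. The let-7 guides and miR-98 share 1 seed and are shown first, in the order of their P3 to P1 ratios, to let the reader see how small the differences outside the seed are.
let-7b-5p: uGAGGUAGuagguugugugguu
let-7d-5p: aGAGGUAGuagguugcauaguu
let-7c-5p: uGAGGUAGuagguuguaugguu
let-7a-5p: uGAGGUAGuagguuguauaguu
miR-98-5p: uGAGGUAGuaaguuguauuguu
let-7i-5p: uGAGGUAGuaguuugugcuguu
let-7f-5p: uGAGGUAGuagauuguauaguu
let-7e-5p: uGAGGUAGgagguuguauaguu
let-7g-5p: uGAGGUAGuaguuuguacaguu
The next are the strands that share clusters with let-7 genes, which were lower at P3.
miR-99b-5p: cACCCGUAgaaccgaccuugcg
miR-100-5p: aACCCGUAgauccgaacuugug
miR-125b-5p: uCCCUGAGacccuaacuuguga
The following were among the microRNAs with the highest ratios or the highest levels at P3. The 3 miR-29 strands are given together because they share a seed.
miR-184-3p: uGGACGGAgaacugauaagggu
miR-210-3p: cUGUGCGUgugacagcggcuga
miR-338-3p: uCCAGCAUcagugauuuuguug
miR-21a-5p: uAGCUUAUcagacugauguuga
miR-9-5p: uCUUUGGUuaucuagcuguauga
miR-29a-3p: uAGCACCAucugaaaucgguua
miR-29b-3p: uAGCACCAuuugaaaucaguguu
miR-29c-3p: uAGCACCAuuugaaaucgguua
The last set was lower at P3. It holds 3 strands of the Dlk1-Dio3 region, the miR-10 pair of the Hox clusters, which share a seed, and 2 strands of lists on neurons and progenitors.
miR-758-3p: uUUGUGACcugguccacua
miR-541-5p: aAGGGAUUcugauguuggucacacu
miR-127-3p: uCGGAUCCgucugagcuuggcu
miR-10a-5p: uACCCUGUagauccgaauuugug
miR-10b-5p: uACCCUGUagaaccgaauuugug
miR-135a-5p: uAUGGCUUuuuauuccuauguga
miR-7a-5p: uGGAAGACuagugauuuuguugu
Of the 428 microRNAs, 373 had a name in the RefSeq table, 340 of them with a mature sequence at 1 locus and 33 at several. Reads of a microRNA with several loci can be counted once per locus, so levels are compared between libraries and not between such microRNAs. Near-identical let-7 guides can also share reads, and their separate values are uncertain to that extent.

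The libraries held 6322534 mature counts at P1 and 8288085 at P3 in the control culture, and 8288819 and 8542827 in the Lin28a culture. A level of 10 CPM stood for 63.2 reads at P1 and 82.9 reads at P3 in control. The labelled cell type could be checked in the RNA-seq libraries of the control culture, where all 11 neural stem cell genes on a fixed list reached 1 FPKM (fragments per length of transcript and depth of the library) at both passages. The ventral midbrain genes reached it in 7 of 7 at P1 and 5 of 7 at P3, and their summed level was 244 FPKM at P1 and 59.0 at P3. Neuron genes summed to 855 and 192 FPKM, astroglial genes to 239 and 1057 FPKM, and oligodendrocyte genes to 167 and 1668 FPKM. The neural stem cell genes summed to 3584 and 6276 FPKM but had no common direction. Nes had 88.2 FPKM at P1 and 38.6 FPKM at P3, and Fabp7 had 1521 and 3418 FPKM. None of the 4 microglial genes reached 1 FPKM at either passage, 1 of 4 endothelial genes did at both (Kdr), and of 5 mesenchymal genes all did at P1 and 3 at P3. The microRNAs are read below beside these values. Their part in the microRNA differences was not tested, and in bulk libraries fewer cells of a type and less RNA per cell cannot be told apart.

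The control libraries stood apart from each other in a way that touches every single strand. In 103 hairpins both arms were compared and each had a mature sequence of its own, and the balance of the 5p to the 3p arm differed by more than 2-fold between P1 and P3 control in 49 of them (47.6%). Between the P1 and P3 Lin28a libraries this was so in 2 of the same 103 hairpins (1.94%). P1 control against the 2 Lin28a libraries gave 16 and 18 hairpins, and P3 control against them 26 and 28. In 40 of the 49 hairpins the 2 control libraries lay on opposite sides of the Lin28a mean. In Mir221, for example, the 5p arm made up 31.0% of the mature counts at P1 control (95% Wilson interval 29.8 to 32.3) and 4.50% at P3 (4.12 to 4.91), against 6.77% and 9.38% in the Lin28a libraries. In Mir152 the 5p share was 56.8% at P1 and 22.7% at P3 in control, and 51.7% and 54.5% in Lin28a. In Mir409 it was 59.6% and 25.8% in control, and 22.6% and 23.2% in Lin28a. So P1 control stood apart in Mir221 and Mir409 and P3 control in Mir152. The part of this difference in the results below was not tested. The ratio of the reads on the whole hairpin counts both arms together, so it leans to the more abundant arm. That ratio is given below where it ends a 2-fold call of a strand named by the rules given at the end, and beside some other strands. Of 80 named strands past 2-fold, 8 were not past 2-fold the same way in the hairpin counts.

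**Figure D1:**
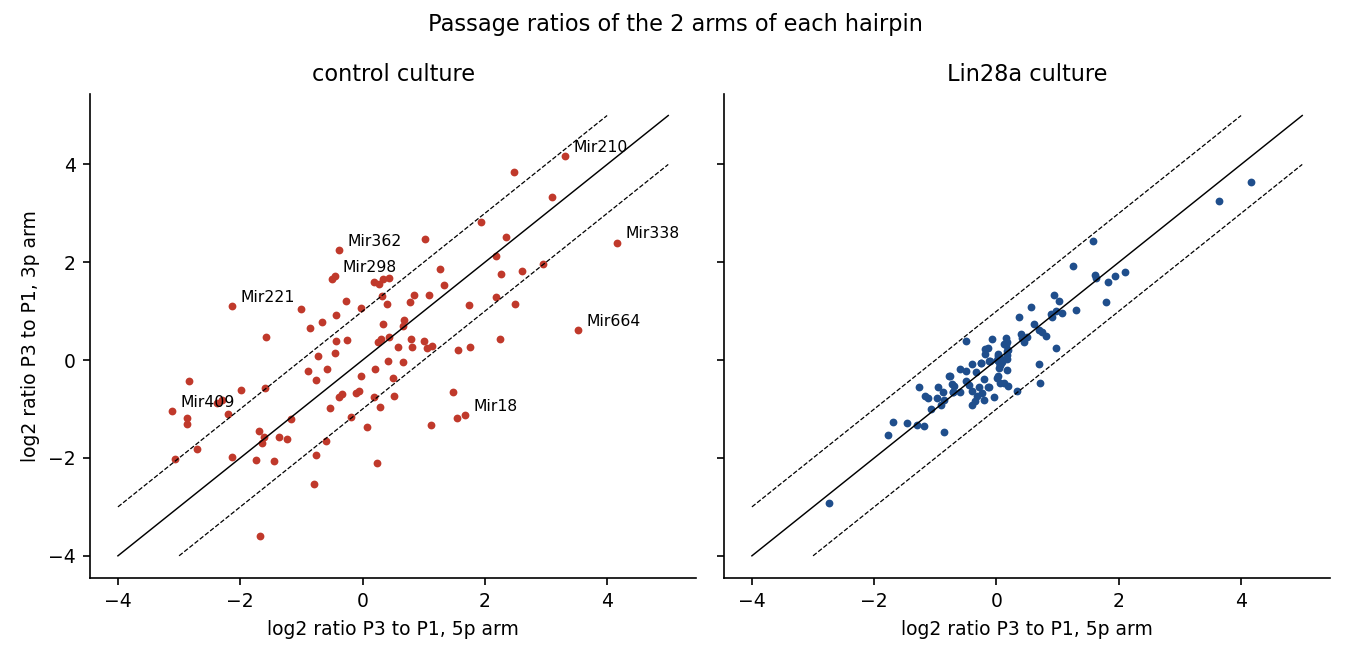
Log2 ratio of P3 to P1 for the 5p arm (x axis) and the 3p arm (y axis) of 103 hairpins, in the control culture (left) and the Lin28a culture (right), 1 point a hairpin. The solid line marks equal ratios and the dashed lines a 2-fold gap between the arms; of the control points 57 lie within the dashed lines and 46 outside them, Mir221 at -2.14 and 1.10, and the Lin28a points lie close to the solid line.

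At P3, 116 of the 428 microRNAs were more than 2-fold higher than at P1 and 124 were more than 2-fold lower, on the scale of log2(CPM + 1). These are 27.1% and 29% of the microRNAs compared, the background against which each group below is read. The median log2 ratio was -0.02, and the remaining microRNAs stayed within 2-fold. A 4-fold difference was passed by 35 microRNAs upward and 47 downward. The counting interval of the ratio, an exact conditional binomial interval at 95% that covers counting error only, lay wholly past 2-fold for 98 of the higher and 112 of the lower microRNAs. Thus counting error alone was small beside most of these ratios, while the variation between cultures is unknown.

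The higher microRNAs made up 14.1% of all mature counts at P1 and 41.0% at P3. The lower ones made up 29.1% and 10.3%. Of the 428, 359 were at 10 CPM or more in both libraries, 39 only at P1 and 30 only at P3. Just inside the rule lay miR-344f-3p, miR-669e-5p and miR-34a-3p, each at 10.1 CPM in its higher library, and just outside lay miR-874-5p at 9.96 CPM and miR-3059-5p at 9.81 CPM. The microRNAs compared carried 99.9% of the counts of each library.

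The microRNA with most counts was miR-99b-5p at P1, with 9.37% of the counts, and miR-9-5p at P3, with 8.38%, although miR-9-5p has 3 loci in the RefSeq table and may be counted more than once. The 10 most abundant held 46.9% of the counts at P1 and 49.0% at P3, and 5 names were on both lists. These were miR-9-5p, miR-26a-5p, miR-30a-5p, miR-99b-5p and miR-181a-5p. By these counts miR-21a-5p, a microRNA of growing cells and reactive glia, stood at 14949 CPM at P1 and 83444 CPM at P3. By contrast miR-30a-5p went from 67500.3 to 40733 CPM and miR-181a-5p from 58550 to 50462 CPM, both within 2-fold. miR-22-3p had 21359 CPM at P1 and 47241 CPM at P3, past 2-fold.

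**Figure D2:**
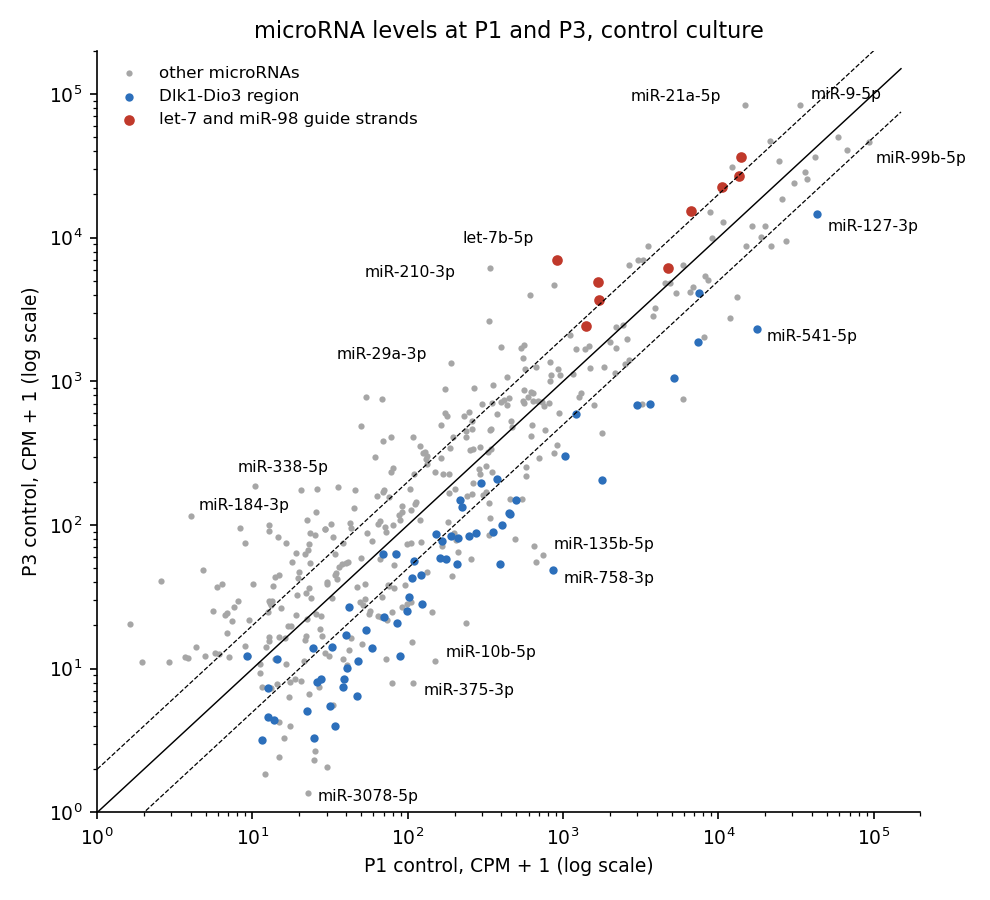
Level of each of the 428 microRNAs at P1 (x axis) and P3 (y axis) of the control culture, as CPM + 1 on log axes, 1 point a microRNA. The solid line marks equal levels and the dashed lines a 2-fold difference; the let-7 guides and miR-98 (red) all lie above the solid line, and 63 of 64 microRNAs of the Dlk1-Dio3 region (blue) lie below it.

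The let-7 family was higher at P3. Of 9 guide strands compared, let-7 and miR-98 together, 6 were more than 2-fold higher and none was more than 2-fold lower. All 9 were higher by some amount, with a median log2 ratio of 1.13. Their summed level was 55228 CPM at P1 and 125388 CPM at P3, that is 5.52% and 12.5% of the counts. 1 more name on the list, let-7k, had no listed read.

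The highest ratio in the family belonged to let-7b-5p, at 909 CPM at P1 and 7000.2 CPM at P3, a log2 ratio of 2.94 (counting interval 2.91 to 2.98). let-7c-5p, which has 2 loci in the table and may be counted more than once, had 13903 CPM at P1 and 36399 CPM at P3, a log2 ratio of 1.39. Among the 9 guides the next ratio after let-7b-5p was that of let-7d-5p, with 1668 and 4939 CPM and a log2 ratio of 1.57. let-7b-5p thus stood well above the other 8 guides, and the highest ratio among the other strands of the family was 1.96 for let-7b-3p.

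For let-7a-5p the values were 6672 and 15412 CPM (log2 ratio 1.21), and for let-7i-5p 10612 and 22426 CPM (1.08). miR-98-5p had 1697 and 3707 CPM (1.13). The 3 guides within 2-fold were let-7f-5p at 13619 and 26867 CPM (0.98), let-7e-5p at 1409 and 2445 CPM (0.79) and let-7g-5p at 4739 and 6193 CPM (0.39). The first of these lay at the threshold, and let-7g-5p stood lowest of the family.

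The other arms of let-7 hairpins did not all follow. let-7b-3p (log2 ratio 1.96) and let-7i-3p (1.33) were higher together with their guides. let-7d-3p had a log2 ratio of 0.21 against 1.57 for its guide, and the 5p share of that hairpin was 63.6% at P1 and 81.7% at P3. miR-98-3p was lower at P3, at 94.3 and 37.2 CPM (log2 ratio -1.32), while its guide was higher. On the log2 scale the ratio of the whole hairpin was close to that of the guide for let-7b (3.00) and miR-98 (1.11). Their guides made up 99.0% and 94.7% of the mature counts of these hairpins at P1, so the hairpin mostly repeats the guide. For let-7d the hairpin had 1.26, below its guide.

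Some let-7 genes lie in clusters with miR-99, miR-100 or miR-125 genes, and these strands went the other way. Of the 5 strands compared, 3 were more than 2-fold lower at P3, none was higher, and the median log2 ratio was -1.01. Their summed level was 168459 CPM at P1 and 79395 CPM at P3. miR-99b-5p had 93732 CPM at P1 and 46417 CPM at P3, and its log2 ratio of -1.01 lay at the threshold, with -0.95 for the hairpin. miR-100-5p had 27305 and 9483 CPM (-1.53), and miR-125b-5p 21802 and 8817 CPM (-1.31). miR-99a-5p (-0.89) and miR-125a-5p (-0.59) stayed within 2-fold.

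The seed shared by miR-99 and miR-100 was thus lower at P3 in 3 of 3 members, 2 of them past 2-fold. In the Mir99b hairpin the 3p arm had a log2 ratio of 1.04 against -1.01 for the 5p arm, while the hairpin as a whole had -0.95. The cluster of Mir99b, Mirlet7e and Mir125a gave a median of 0.12 over 6 strands, with let-7e-5p above 0 and miR-99b-5p and miR-125a-5p below it. Members of 1 cluster therefore had ratios of opposite sign.

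**Figure D3:**
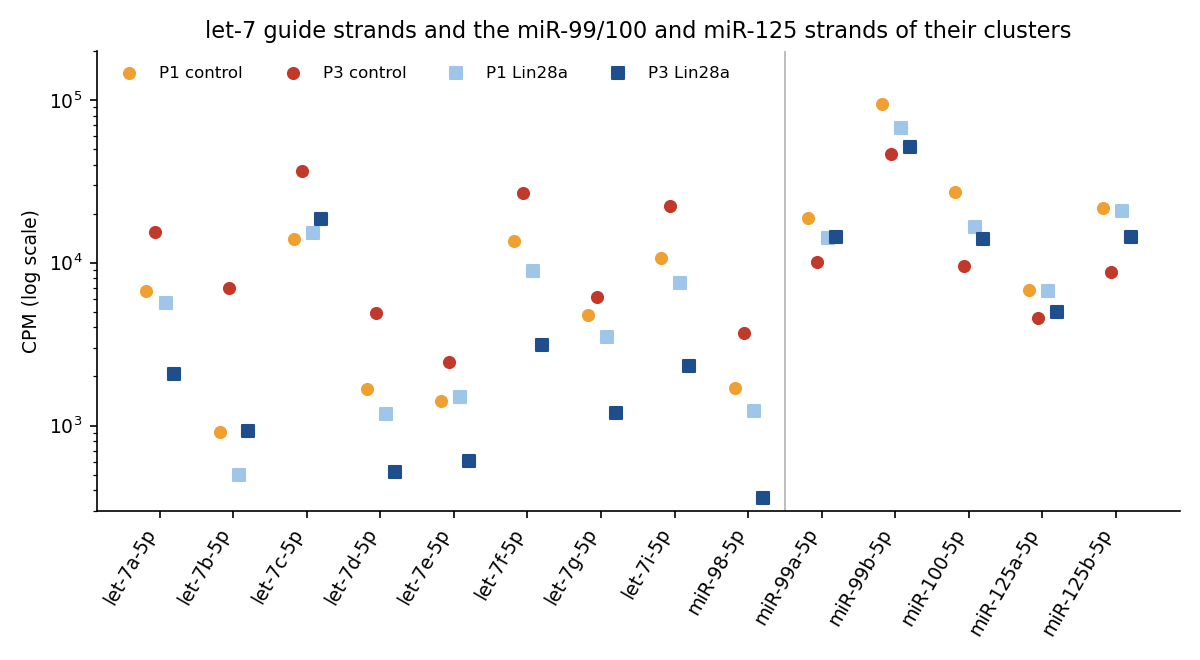
Level in CPM (log axis) of 9 let-7 and miR-98 guides (left of the grey line) and 5 miR-99, miR-100 and miR-125 strands (right), 1 point a library, with control as circles and Lin28a as squares. Every let-7 guide was higher at P3 than at P1 in control, let-7b-5p from 909 to 7000.2 CPM, and each of the 5 other strands was lower, miR-100-5p from 27305 to 9483 CPM.

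In the Lin28a culture 424 microRNAs met the same rule, of which 55 were more than 2-fold higher at P3 (13%) and 75 lower (17.7%). The 2 passage comparisons have no library in common. Over the 428 microRNAs of the control comparison the log2 ratios of the cultures correlated at 0.75 (Pearson) and 0.72 (Spearman), as a description across microRNAs, which are not independent. The counts of all microRNAs of a library set the scale of each.

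Of the 116 microRNAs higher in control, 44 were higher past 2-fold in Lin28a too, and of the 124 lower ones 50 were lower in both. These are 37.9% and 40.3% of the control sets. They are 80.0% and 69.4% of the corresponding Lin28a sets over the same microRNAs. With signs kept, the Lin28a ratio lay below the control ratio for 92.2% of the higher microRNAs and above it for 93.5% of the lower ones. Both sets were chosen by their control ratio.

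Opposite calls were met by 5 microRNAs, higher at P3 in control and lower at P3 in Lin28a, and by none the other way. All 5 were of the let-7 family (let-7a-5p, let-7d-5p, let-7i-5p, let-7i-3p and miR-98-5p). The median over the 9 guides was -1.44 in the Lin28a culture, where their summed level was 45113 CPM at P1 and 29657 CPM at P3. let-7b-5p, at 500 and 931 CPM (log2 ratio 0.90), and let-7c-5p, at 15171 and 18518 CPM (0.29), were above 0 in that culture also.

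Outside the family the largest gaps upward in control were those of miR-362-3p and, downward, of miR-299a-5p and miR-10a-5p. miR-362-3p had 21.5 and 106.7 CPM in control and 30.04 and 21.3 CPM in Lin28a. Its control log2 ratio of 2.26 stood beside -0.38 for the other arm and 0.76 for the hairpin counts, within 2-fold. miR-299a-5p had 87.6 and 11.3 CPM in control and 94.8 and 94.9 CPM in Lin28a. Both strands belong to hairpins whose arm balance differed between the control libraries, and the whole hairpin had a log2 ratio of -0.96 for Mir299a in control. miR-10a-5p had 143 and 23.7 CPM in control and 62.6 and 69.9 CPM in Lin28a. miR-375-3p and miR-758-3p came next, with log2 ratios of -3.75 and -4.15 in control and of -1.06 and -1.59 in Lin28a.

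The largest block of microRNAs that were lower at P3 came from the Dlk1-Dio3 region of chromosome 12. This imprinted region is transcribed from the maternal chromosome as long noncoding RNAs, among them Meg3, Rian and Mirg, that hold many microRNA hairpins. Of 64 microRNAs compared that lie there in the RefSeq table, 50 were more than 2-fold lower at P3, none was more than 2-fold higher, and 63 were lower by some amount. The median log2 ratio was -1.69. They made up 9.95% of all counts at P1 and 2.90% at P3, and 40.3% of all microRNAs past 2-fold downward. Without them the other 364 microRNAs had 116 higher and 74 lower, with a median of 0.31. These 364 still held miR-376c-3p, miR-485-5p and miR-487b-3p, which are on the list for the region but not in the table, and all 3 were past 2-fold downward.

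The most abundant strand of the region, miR-127-3p, had 43143 CPM at P1 and 14518 CPM at P3, a log2 ratio of -1.57. miR-541-5p had 17617 and 2314 CPM (-2.93). miR-410-3p had 7427 and 1889 CPM (-1.97), and miR-411-5p 5188 and 1057 CPM (-2.29). miR-758-3p gave the lowest ratio of all 428 microRNAs at the pseudocount of 1 CPM, with 858 CPM at P1 and 47.5 CPM at P3 (-4.15). At a pseudocount of 0.1 CPM miR-3078-5p, with 3 reads at P3, was lower (-5.56 against -4.17). miR-409-5p, at 1785 and 205 CPM, had a log2 ratio of -3.12 beside -1.04 for its other arm and -1.77 for the hairpin.

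The 1 member above 0 was miR-337-3p, at 8.22 and 11.3 CPM. miR-154-5p was almost level, at 68.0 and 61.5 CPM. The lower values ran along the whole region. The 19 strands before miR-379 had a median of -1.60 with 15 past 2-fold, and the 45 from miR-379 on had a median of -1.78 with 35 past 2-fold. Both arms were more than 2-fold lower, with ratios within 2-fold of each other, in Mir127, Mir136, Mir329, Mir376b, Mir431, Mir666, Mir667 and Mir673.

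Noncoding transcripts of the region were lower as well in the RNA-seq libraries. By RefSeq positions miR-370-3p lies inside Rian and miR-410-3p inside Mirg, while miR-127-3p does not lie inside Meg3. Rian had 101 FPKM at P1 and 18.99 FPKM at P3 (log2 ratio of FPKM + 1 of -2.35), Meg3 had 78.0 and 15.5 FPKM (-2.26), and Mirg had 3.71 and 0.53 FPKM (-1.62). Among 13011 genes at 1 FPKM or more in either library, 8.14% were more than 2-fold lower and 11.5% more than 2-fold higher. In the Lin28a culture the 64 microRNAs had a median log2 ratio of -0.77, with 9 past 2-fold downward and 61 lower by some amount. The control ratio was the lower of the 2 for 55 of the 64.

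**Figure D4:**
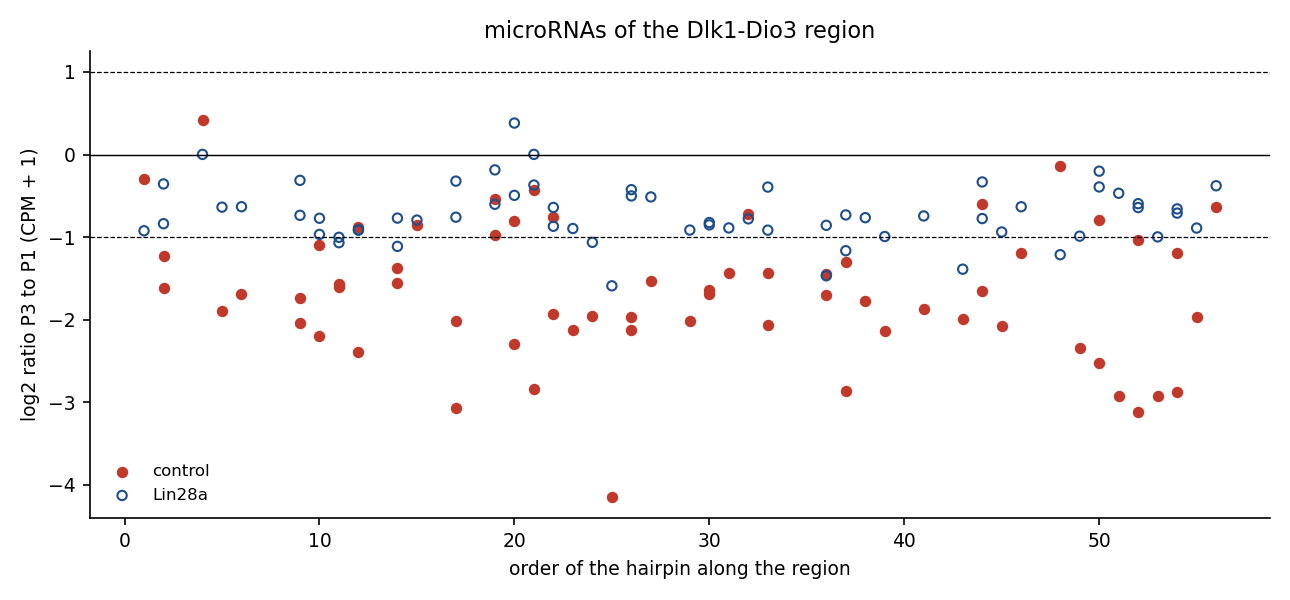
Log2 ratio of P3 to P1 (y axis) of the 64 microRNAs of the Dlk1-Dio3 region, by the order of their hairpins along the region (x axis), in the control culture (filled red) and the Lin28a culture (open blue). Dashed lines mark 2-fold; the control points lie below 0 except for miR-337-3p at 0.42, with a median of -1.69, and the Lin28a median is -0.77.

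The highest ratios of single microRNAs belonged to miR-184-3p and miR-210-3p. miR-184-3p, known from neural stem cell proliferation, had 19 reads at P1 and 953 at P3, or 3.01 and 115 CPM (log2 ratio 4.86). It stood at 3.38 and 128 CPM in Lin28a. miR-210-3p, the microRNA best known for its induction under low oxygen, had 337 and 6122 CPM (4.18), and its other arm 48.7 and 491 CPM (3.31). The Lin28a culture showed 385 and 4791 CPM for miR-210-3p. Both microRNAs thus had like ratios in the 2 cultures.

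The other 7 of the 10 highest were led by miR-338-5p, at 9.33 and 185 CPM (4.17), with 2.80 for the hairpin. miR-21a-3p had 52.99 and 773 CPM (3.84) beside 2.48 for its major arm. miR-219a-2-3p had 67.4 and 757 CPM (3.47). miR-138-1-3p, at 10 reads and 331 reads, had a log2 ratio of 3.99 against 1.55 for its hairpin counts. miR-664-5p had 7.28 and 93.9 CPM (3.52), with 0.62 for its other arm and 2.102 for the hairpin. miR-8115 rested on 4 reads at P1 and 161 at P3. miR-3093-3p, at 3.80 and 47.4 CPM (3.34), was matched by 3.10 for its other arm.

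Glial lists were higher. Of 7 oligodendrocyte microRNAs compared, 5 were more than 2-fold higher and none lower, with a median log2 ratio of 1.40, and 2 more on the list were below 10 CPM. The strand best known there, miR-338-3p, had 76.9 CPM at P1 and 411 CPM at P3 (2.40). miR-219a-5p had 246 and 608 CPM (1.30), and miR-138-5p 552 and 1456 CPM (1.40). miR-219a-1-3p, compared but not on the list, had a log2 ratio of -0.66. The list had a median of 1.36 in the Lin28a culture. The RNA-seq of the control culture moved with it: Mbp, a protein of myelin, had 4.39 FPKM at P1 and 633 FPKM at P3, and Sox10, a factor of the oligodendrocyte lineage, had 1.04 and 74.8 FPKM. Aatk, the gene that holds Mir338, had 5.85 and 22.0 FPKM (log2 ratio 1.75).

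Of 9 microRNAs on an astroglial and inflammatory list, 7 were more than 2-fold higher and none lower, with a median of 1.95. It holds miR-21a-5p (2.48) and the miR-29 strands, which rise in the maturing brain. miR-29a-3p had 189 and 1342 CPM (2.82), miR-29b-3p 7.91 and 74.6 CPM (3.08, with 2.32 for the hairpin), and miR-29c-3p 148 and 235 CPM (0.66). So the strands of 1 seed spread widely. miR-155-5p, a microRNA of activated immune cells that was on a list for blood and microglia too, had 44.4 and 174 CPM (1.95). The other 6 of 7 on that list stayed below 10 CPM, and none of the 4 microglial genes reached 1 FPKM. Of the astroglial genes, Gfap had 0.74 and 142 FPKM, and Aqp4 had 5.42 and 143 FPKM.

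Neuronal microRNAs split. Of 20 compared, 7 were more than 2-fold higher and 10 lower, with a median log2 ratio of -0.56. The median turned to 0.46 when a minimum of 100 CPM was set. miR-124-3p, the main microRNA of neurons, had 648 CPM at P1 and 70.5 CPM at P3 (-3.18). miR-7b-5p had 71.8 and 10.7 CPM (-2.63), and miR-218-5p had 3243 and 693 CPM (-2.22). Slit2 and Slit3, the genes whose introns hold miR-218, had log2 ratios of -3.65 and -1.62 in RNA-seq. Among the higher ones, miR-129-5p had 334 and 2641 CPM (2.98), miR-212-3p 68.2 and 386 CPM (2.48) and miR-139-5p 16.9 and 54.4 CPM (1.63). miR-132-3p, a neighbour of miR-212 and known to follow neuronal activity, had 432 and 1064 CPM (1.30), and all 4 strands of that cluster were past 2-fold. The neuron genes Tubb3 and Dcx had 359 and 22.2 FPKM, and 64.7 and 6.73 FPKM.

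Progenitor microRNAs showed no common direction, with 3 higher and 2 lower of 7 and a median of 0.15. miR-9-5p had 33496 and 83788 CPM (1.32) and miR-9-3p 608 and 3975 CPM (2.71), with 1.49 for the hairpin. Against these, miR-135b-5p had 740 and 60.7 CPM (-3.59), and miR-135a-5p, which is known to act on Lmx1b and the size of the midbrain dopamine progenitor pool, had 5944 and 753 CPM (-2.98, with -2.36 for the hairpin). Lmx1b itself had 12.8 FPKM at P1 and 0.97 FPKM at P3. miR-7a-5p, also on the list of midbrain and dopamine neuron studies, had 486 and 78.8 CPM (-2.61). Of that list 3 were higher and 2 lower of 5 compared, and miR-133b-3p had 0 reads at P1 and 4 at P3, below the rule.

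The miR-10 pair, encoded in the Hox clusters and known from the hindbrain and spinal cord, was lower. miR-10b-5p had 148 CPM at P1 and 10.4 CPM at P3 (-3.71), and miR-10a-5p 143 and 23.7 CPM (-2.55). miR-375-3p, a microRNA of pituitary and islet cells, had 106.6 and 6.998 CPM (-3.75). miR-199a-5p, of mesenchymal cells, had 237 and 19.9 CPM (-3.51), beside -1.22 for miR-199a-3p and -1.63 for the hairpin counts. Mesenchymal microRNAs gave 2 higher and 3 lower of 5, with miR-143-3p (1.67) among the higher. Their summed level was 1144 CPM at P1 and 1916 CPM at P3.

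The rest of the 10 lowest comprised miR-135b-3p (29.1 and 1.09 CPM, -3.85), miR-708-3p (670 and 54.3 CPM, -3.60, with -2.89 for the hairpin), miR-592-5p (23.9 and 1.33 CPM, -3.42, with -2.58 for the hairpin) and miR-224-5p (78.6 and 6.998 CPM, -3.32). miR-3078-5p had 137 reads at P1 and 3 reads at P3, and the counting interval of its log2 count ratio reached from -8.20 to -4.33. The 2 arms of Mir135b were thus low together.

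Growth and stress lists were small. All 5 listed strands of the miR-34 genes, which p53 is known to induce, were more than 2-fold higher. miR-34a-5p had 173 and 882 CPM (2.34), and its other arm, not on the list, had 0.95 and 10.1 CPM (2.51). The neighbours Mir34b and Mir34c gave log2 ratios from 1.09 for miR-34c-5p to 1.54 for miR-34b-3p. The miR-17-92 cluster and its paralogs, known to drive proliferation, gave 2 higher and 1 lower of 9 compared, with 4 more below 10 CPM. miR-92a-3p had 12312 and 31051 CPM (1.33), with 0.79 for the hairpin counts, and miR-19a-3p 334 and 84.0 CPM (-1.98). miR-18a-5p had 557 and 1782 CPM (1.68), while miR-18a-3p went the other way with -1.12. The hairpin counts of Mir18 gave 1.59, opposite in sign to miR-18a-3p.

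In the X-linked cluster of miR-322 and miR-503, known for slowing the cell cycle, 3 of 7 were higher and none lower. miR-503-5p had 5.38 and 38.0 CPM (2.61), miR-351-5p 2657 and 6406 CPM (1.27) and miR-322-3p 131 and 303 CPM (1.20). The last is the minor arm of its hairpin, whose major arm miR-322-5p had -0.27 and whose hairpin counts gave 0.10, so that 1 of the 3 was not past 2-fold there. Among the relatives of miR-15 and miR-16 only miR-195a-5p was past 2-fold, at 265 and 901 CPM (1.76). miR-27a-3p had 395 and 1737 CPM (2.13), while miR-23b-3p, of the paralogous cluster, had 909 and 360 CPM (-1.34). The 4 strands counted in the Mir23a cluster, without miR-24-3p (0.84), had a median of 1.96. They include both arms of Mir27a, and miR-23a-3p among them had 0.77. On the list of miR-23, miR-27 and miR-24, 1 of 5 was higher and 1 lower. The list summed to 22049 CPM at P1 and 15596 CPM at P3.

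Other families moved less or downward. None of 5 miR-30, 4 miR-181 and 2 miR-26 strands passed 2-fold. In miR-130 and miR-301, 2 of 4 were lower, with miR-301a-3p at 11864 and 2764 CPM (-2.10). Of 9 strands compared on the list for the Sfmbt2 intron cluster, 6 were lower and none higher (median -1.35). This list was formed by name and not by position, and near-identical copies make its single values uncertain. The list had 45 strands with a read, and the others stayed below 10 CPM. miR-182-5p and miR-183-5p were both lower (-1.66 and -1.10). Among imprinted microRNAs outside Dlk1-Dio3, miR-335-5p had 8077 and 2033 CPM (-1.99) and miR-335-3p -0.61, with -1.01 for the hairpin. The 5p share of Mir335 was 49.5% at P1 control and between 23.3% and 27.4% in the other 3 libraries. Of miR-148 and miR-152, 1 of 3 was higher (miR-152-3p, 1.65). Its other arm had -0.49 and the hairpin counts 0.73, within 2-fold. Of miR-204 and miR-211 1 of 2 was lower (miR-211-5p, -2.55). In miR-221 and miR-222 the 3p strand of Mir221 was higher (1.10) and its 5p strand lower (-2.14), and the hairpin counts gave 0.68.

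Some lists stayed at trace levels. The embryonic stem cell clusters miR-290 and miR-302 summed to 3.48 CPM at P1 and 3.38 CPM at P3, and no member met the rule. The epithelial miR-200 and miR-141 strands summed to 7.12 and 9.29 CPM. The liver microRNA miR-122-5p had 5 and 2 reads. Muscle microRNAs summed to 12.0 and 19.3 CPM. The 2 endothelial miR-126a strands were above trace level, at a sum of 288 and 363 CPM, and both stayed within 2-fold.

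**Figure D5:**
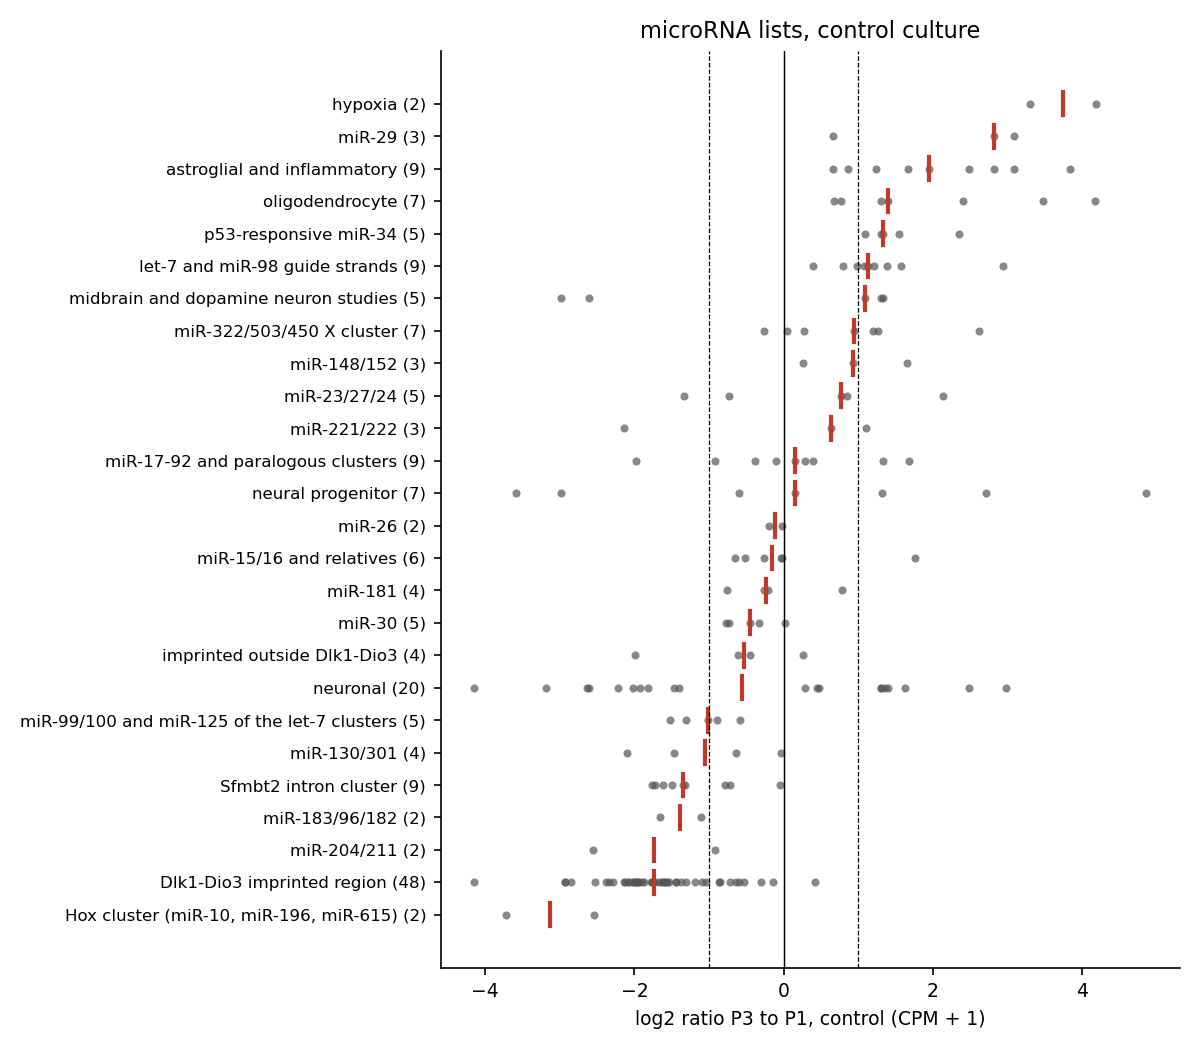
Log2 ratio of P3 to P1 in the control culture (x axis) of the members of 26 microRNA lists with 2 or more members compared, with the number compared in brackets, 1 point a microRNA and a red bar at the median. Dashed lines mark 2-fold; the glial, miR-29, miR-34 and let-7 lists lie to the right, the Dlk1-Dio3 list (median -1.74 over the 48 members on the list) to the left, and the neuronal list on both sides.

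Among the 373 microRNAs compared that had a RefSeq sequence, 12 seeds were shared by 3 or more, 49 microRNAs in all. Strands without such a sequence, miR-30b-5p, miR-30d-5p and miR-301b-3p among them, were left out, so a group can lack members. The group of miR-30 had all signs alike only without miR-30b-5p, whose log2 ratio was 0.02. In 7 of the 12 groups every member counted had a ratio of the same sign. Members past 2-fold in both directions occurred in 2 groups. One held miR-125a-5p, miR-125b-5p (-1.31) and miR-351-5p (1.27), and the other the 3p strands of let-7 and miR-98. The seed of miR-25, miR-32 and miR-92 was above 0 in 4 of 4, and its summed level was 46011 CPM at P1 and 75300 CPM at P3.

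By position, 23 groups of neighbouring hairpins (within 10 kb on 1 strand) had 2 or more hairpins compared. In 10 of them all strands counted had the same sign. Strands with several loci, such as let-7c-5p, were not counted. The group of Mir500, Mir362 and their neighbours had 5 of 8 strands counted past 2-fold upward. Among these, miR-501-5p (1.47) and miR-362-3p (2.26) stood beside -0.66 and -0.38 for their other arms. miR-532-5p (0.91) was not counted. The group of Mir17 had 3 of 8 past 2-fold downward and 1 upward, without miR-92a-3p (1.33) and miR-19b-3p (-0.92). The log2 ratio had a Spearman rho of 0.11 with the GC content of the mature strand over 373 microRNAs, and of 0.05 with the mean log2 CPM over the 428.

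Both arms of a hairpin are cut from 1 transcript. In the control culture 75 of the 103 hairpins had arms with ratios of the same sign, and the 2 arms had a Pearson r of 0.65 across hairpins. In 46 hairpins the ratios of the arms, taken with the pseudocount of 1 CPM, differed by more than 2-fold (the 49 above come from the read counts of the arms with 0.5 added to each), with the minor arm above the major one in 22 and below it in 24. The gap between minor and major arm in control had a Pearson r of -0.02 with the gap in Lin28a. The arms passed 2-fold in opposite directions in 5 hairpins, Mir18, Mir98, Mir99b, Mir221 and Mir1981. The hairpin counts of Mir221 gave 0.68, within 2-fold, beside -2.14 for miR-221-5p and 1.10 for miR-221-3p. The more abundant arm changed between P1 and P3 in 11.

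Over all 103 hairpins, both arms were past 2-fold upward in 17 and downward in 16. Hairpins with like arms were picked by these same ratios, so they give no independent look at the main groups. Of 57 hairpins whose arms had ratios within 2-fold of each other, both arms were past 2-fold upward in 13 and downward in 10. The 13 were Mirlet7b, Mirlet7i, Mir27a, Mir29a, Mir33, Mir34a, Mir34b, Mir132, Mir210, Mir351, Mir503, Mir700 and Mir3093. Besides 8 of the Dlk1-Dio3 region, the 10 were Mir214 and Mir342. Evl, the gene that holds Mir342, had 96.1 and 41.4 FPKM (-1.20), beside -1.21 for miR-342-3p.

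Host genes were otherwise a weak guide. Over 38 pairs of a microRNA and a gene that holds it, 21 had the same sign, with correlations of 0.43 (Pearson) and 0.43 (Spearman) across pairs that partly share a gene or a microRNA. Both were past 2-fold the same way in 6 pairs and opposite ways in none. The 6 are those of Aatk, Evl, Slit2, Slit3, Rian and Mirg, all named above. Vmp1, whose annotated gene spans Mir21a, had 20.1 and 25.4 FPKM (0.32) beside 2.48 for miR-21a-5p. Huwe1, the gene that holds Mir98, had 42.0 and 20.9 FPKM (-0.97) beside 1.13 for miR-98-5p. Mcm7, a replication gene that holds miR-25, miR-93 and miR-106b, had 69.1 and 28.8 FPKM (-1.24), and the 3 strands lay between -0.39 and 0.40.

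Of 23 genes of microRNA processing and function, 20 reached 1 FPKM. Among these none was more than 2-fold higher, against 11.5% of all genes compared, and 3 were lower, against 8.14%. In all 18 were lower by some amount, with a median log2 ratio of -0.50 against -0.00 for all genes. The 3 were Zcchc11, which adds uridines to let-7 precursors (23.1 and 9.27 FPKM, -1.23), Ago2, the Argonaute that can cut its target (15.3 and 6.62 FPKM, -1.09), and the export factor Xpo5 (35.6 and 16.3 FPKM, -1.08). Drosha had 31.0 and 22.6 FPKM (-0.44), and Dicer1 13.2 and 8.39 FPKM (-0.60). The let-7 inhibitors Lin28a (0.13 and 0.06 FPKM) and Lin28b (0.72 and 0.27 FPKM) were below 1 FPKM at both passages of the control culture, as was Trim71, a let-7 target (0.26 and 0.18 FPKM).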

How the data were processed

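Small RNA tables were deposited by the authors as counts of reads per mature microRNA and per hairpin, per the file headers, without normalization. The RNA-seq tables deposited by the authors hold 1 value per gene, read here as FPKM from the tools named. Bowtie 1.0.0, TopHat2 2.0.6, Cufflinks 2.1.1 and build mm9 are named per the submitters' processing notes, which assign them no role. How adapters, mismatches and reads with several positions were treated is not given in the sources used here.

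Mature counts were scaled to CPM of the library and set against each other as log2 ratios with a pseudocount of 1, which understates ratios of low microRNAs. The hairpin column was scaled by its own total, and FPKM used a pseudocount of 1. Intervals and the floor of 3 reads cover counting error only. Depth was 6322534 to 8542827 mature counts per library. Sequences and positions are RefSeq's on GRCm38.p6, another build than mm9, so no coordinates are printed. The ratio and interval code was tested on simulated data. Values were computed with pandas 2.3.3 and scipy 1.17.1 under Python 3.11.15 and plotted with matplotlib 3.10.9. The tables had 0 columns of other samples.

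The microRNAs and lists were chosen with earlier results of these data known. Named are every let-7 and miR-98 guide, the 10 highest and 10 lowest ratios, the 10 most abundant, up to 4 members per list and the 5 largest gaps between cultures each way. Other strands named for an arm, a host gene, a cluster or their level were chosen after their values were seen. Alternatives changed the pseudocount, the CPM minimum, the scaling, the count column, the loci and the threshold.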

Additional observations from a re-analysis of the deposited data

Results flagged for a closer look

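In 5 strands of the let-7 family the passage ratio passed 2-fold upward in the control culture and downward in the Lin28a culture. The control log2 ratio minus the Lin28a log2 ratio was 2.90 for miR-98-5p, 2.77 for let-7i-5p, 2.76 for let-7d-5p, 2.65 for let-7a-5p and 2.60 for let-7i-3p. Each ratio rests on 1 library a passage, so the difference was not tested.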

How the results depend on the processing

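The counts of 116 higher and 124 lower microRNAs stayed within 1.5 times under a pseudocount of 0.1 or 10 CPM, a minimum of 1 CPM or of 10 CPM in both libraries, centring, scaling without the 5 most abundant microRNAs, hairpin counts, microRNAs at 1 locus and a 1.5-fold threshold. A minimum of 100 CPM gave 67 and 65 of 253, and a 4-fold threshold 35 and 47, both by construction. In 2 alternatives chosen after seeing the data, the 114 microRNAs of hairpins with like arms gave 31 and 21, and leaving out Dlk1-Dio3 gave 116 and 74. With hairpin counts 14 of the microRNAs past 2-fold had the other sign. Among 116 named ones, miR-221-5p changed sign there from -2.14 to 0.68, and 81 others moved by more than their counting interval, with 4 of them, all within 2-fold, also changing sign (miR-126a-3p, miR-130b-3p, miR-26b-5p and miR-322-5p). The neuronal median turned from -0.56 to 0.46 at 100 CPM. The cause was not tested. No paired analysis was possible because each group holds 1 library, and for the same reason no library could be left out. Depth limits the microRNAs with a few reads in 1 library, such as miR-3078-5p and miR-8115.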
